A study of Mus musculus with 2 samples.

Results

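Among single cells of mouse duodenal crypts, 129 of 12756 barcodes were Olfm4-low progenitors in S phase, 72 in library 1 and 57 in library 2. They are crypt cells with no unique molecular identifier (UMI, taken as 1 captured RNA molecule) of Lgr5 and little Olfm4, chosen by measured values. The sum of Hells, Uhrf1, Pclaf and Rrm2, which mark DNA replication, had to be at least 10 UMIs. The sum of Ube2c, Ccnb1, Cdc20 and Hmmr, which mark G2 and mitosis, could be at most 3 UMIs. Olfm4 had to lie under 0.3% of the cell's UMIs. Cells also needed at least 500 genes, at least 5000 UMIs and no more than 25% of them mitochondrial. They needed 0 UMIs of the leukocyte gene Ptprc and less than 2% from the Paneth genes Lyz1 and Defa24, 0.5% from the goblet genes Clca1, Zg16 and Fcgbp, and 0.2% from the enterocyte genes Apoa1, Apoa4 and Apoc3.

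The mice were wild type and formed 2 groups, NT and ES, whose letters are not explained in the labels, and the title names chronic stress and intestinal stem cell ageing. Neither age, sex nor strain beyond wild type is given in the labels. Cells of 5 animals per group were pooled into 1 library, so there is no replicate, and animal, library and treatment cannot be told apart. The barcodes carry the number 1 or 2, which no label ties to NT or ES, so values are given for library 1 and library 2 and no direction between the treatments is drawn.

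The crypt is the pit of the intestinal lining in which cells are made. Stem cells at its base express Lgr5 and Olfm4, and their daughters leave the base, divide several times as transit-amplifying progenitors and then become absorptive or secretory cells. At the border of G1 and S phase, E2F factors switch on the genes for licensing origins, for the polymerases and for nucleotides, and the MCM helicase then unwinds DNA while newly made strands are methylated and packed. Genes of mitosis are switched on later, largely through the CHR element of their promoters and the NF-Y factor that binds CCAAT.

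The 4 genes of the S-phase sum have roles in these steps. Hells is a chromatin remodeller needed for DNA methylation, and Uhrf1 brings the methyltransferase Dnmt1 to newly replicated DNA. Pclaf binds the sliding clamp PCNA, and Rrm2 is the small subunit of ribonucleotide reductase, which makes the DNA precursors. Their promoters, from 250 bases before to 50 bases after the RefSeq start site on GRCm38.p6, the same build as mm10, are shown because they are the control regions of the genes that select these cells, with Ube2c from the mitotic sum as a contrast. Sequences run 5′ to 3′ on the gene's strand, and capitals mark the E2F words TTTCCCGC, TTTGGCGC, TTTCGCGC and TTTGCCGC, the NF-Y word CCAAT and, in Ube2c alone, the CHR word TTTGAA, each on either strand.

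The Hells promoter lies at chr19:38930740-38931039 on the plus strand and holds 1 E2F word.
Hells: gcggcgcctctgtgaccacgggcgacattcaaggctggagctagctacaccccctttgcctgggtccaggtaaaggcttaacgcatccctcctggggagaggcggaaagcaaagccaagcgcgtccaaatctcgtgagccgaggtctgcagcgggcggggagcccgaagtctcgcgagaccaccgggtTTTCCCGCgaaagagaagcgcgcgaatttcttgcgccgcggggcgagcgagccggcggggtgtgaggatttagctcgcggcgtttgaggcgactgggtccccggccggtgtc
Of the 2 Uhrf1 promoters in the table, the one at chr17:56304063-56304362 on the plus strand holds an E2F word and 2 CCAAT words, and the other, at chr17:56303087-56303386, holds CCAAT words only.
Uhrf1: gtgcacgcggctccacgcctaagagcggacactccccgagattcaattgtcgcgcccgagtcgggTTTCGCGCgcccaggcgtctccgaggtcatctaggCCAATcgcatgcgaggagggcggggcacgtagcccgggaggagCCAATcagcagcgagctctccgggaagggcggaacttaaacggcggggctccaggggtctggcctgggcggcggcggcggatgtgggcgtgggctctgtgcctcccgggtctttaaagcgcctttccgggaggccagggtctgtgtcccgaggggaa
The Pclaf promoter lies at chr9:65890073-65890372 on the plus strand and holds an E2F word on the reverse strand that spans the start site.
Pclaf: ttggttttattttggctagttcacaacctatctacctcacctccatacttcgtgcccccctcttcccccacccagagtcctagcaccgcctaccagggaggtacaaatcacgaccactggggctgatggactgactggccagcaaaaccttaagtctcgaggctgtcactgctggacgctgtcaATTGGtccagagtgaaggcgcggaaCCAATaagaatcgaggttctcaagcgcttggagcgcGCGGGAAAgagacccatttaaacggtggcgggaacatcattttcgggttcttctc
The Rrm2 promoter at chr12:24708004-24708303 on the plus strand holds 1 CCAAT word and none of the E2F words.
Rrm2: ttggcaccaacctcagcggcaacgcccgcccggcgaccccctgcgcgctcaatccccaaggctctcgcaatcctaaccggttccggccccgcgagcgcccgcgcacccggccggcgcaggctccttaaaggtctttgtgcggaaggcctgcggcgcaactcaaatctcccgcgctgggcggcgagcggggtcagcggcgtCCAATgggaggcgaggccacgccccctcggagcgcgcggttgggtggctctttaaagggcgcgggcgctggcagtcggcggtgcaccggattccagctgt
The Ube2c promoter at chr2:164769679-164769978 on the plus strand holds 1 CHR word and 6 CCAAT words.
Ube2c: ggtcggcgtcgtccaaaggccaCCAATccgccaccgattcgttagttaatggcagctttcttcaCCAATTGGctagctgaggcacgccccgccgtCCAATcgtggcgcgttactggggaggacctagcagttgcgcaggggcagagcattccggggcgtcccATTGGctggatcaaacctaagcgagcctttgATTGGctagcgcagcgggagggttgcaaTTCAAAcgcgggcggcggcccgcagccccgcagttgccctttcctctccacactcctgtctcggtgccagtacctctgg

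Across promoters, the E2F words were far more frequent in the replication lists than in genes at large. Of 117 genes in 7 replication lists, 93 had a promoter in the table and 30 of these, 32.3%, held an E2F word, against 2.61% of all 27025 genes. The licensing and MCM list had the word in 7 of 10 genes, and the nucleotide list in 1 of 16. Of 28 genes of G2 and mitosis, 1 held an E2F word, whereas 21, or 75%, held the CHR word and 24, or 85.7%, held CCAAT, against 20.2% and 41.1% of all genes. Of the 316 promoters with both an E2F word and CCAAT, 5 had matches that overlapped. A match describes these letters and is no evidence of binding.

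Within the rule, Hells had a median of 5 UMIs per member in each library, Uhrf1 3 in library 1 and 4 in library 2, Pclaf 5 in each, and Rrm2 4 and 5. Each of the 4 genes had a UMI in nearly every member, from 67 to 71 of 72 in library 1 and from 54 to 57 of 57 in library 2. The summed S-phase UMIs had medians of 18 and 19 and reached 44 and 51. Of the members, 27 had a sum of 10 to 12, and 54 cells that met every other criterion fell just short with 7 to 9.

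The mitotic sum was 0 in 24 members, 1 in 39, 2 in 36 and 3 in 30. Another 85 Olfm4-low cells with the S-phase sum had 4 to 9 mitotic UMIs, and 295 had at least 10, so most Olfm4-low cells that carried the S-phase genes also carried mitotic ones. On the Olfm4 side, 83 members were under 0.1% and 46 between 0.1% and 0.3%, and 29 otherwise eligible cells lay between 0.3% and 0.6%. These counts describe the thresholds, and the plot of both sums shows no gap at either of them.

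**Figure D1:**
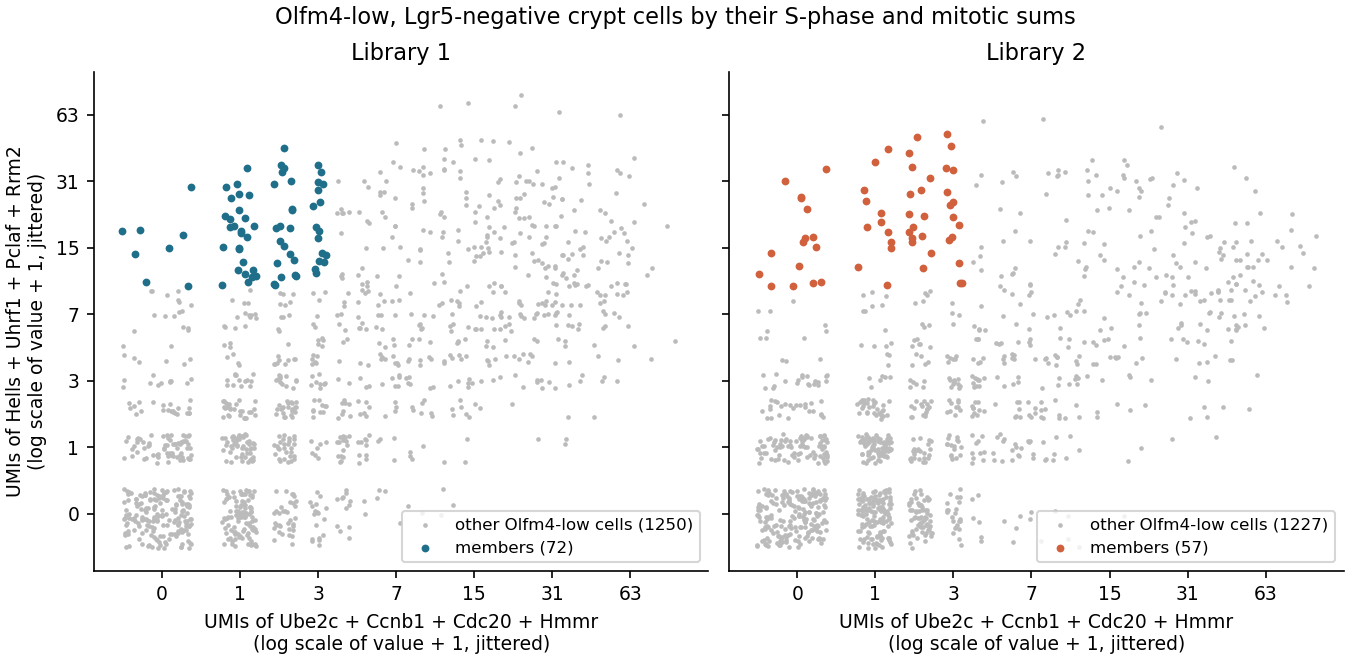
Each point is 1 Olfm4-low, Lgr5-negative crypt cell. The x axis gives its UMIs of Ube2c, Ccnb1, Cdc20 and Hmmr and the y axis its UMIs of Hells, Uhrf1, Pclaf and Rrm2, on log scales of the value plus 1 with jitter, in library 1 (left) and library 2 (right). The 72 and 57 members (coloured) border on other cells (grey) on both sides, with no empty band between them.

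The members made up 2.60% of the 2764 quality-passing barcodes of library 1 (exact Clopper-Pearson 95% interval 2.04% to 3.27%) and 2.04% of the 2793 of library 2 (1.55% to 2.64%). Of all Olfm4-low cells they were 5.45% (4.29% to 6.81%) in library 1 and 4.44% (3.38% to 5.71%) in library 2. For members the intervals of the 2 libraries overlap in both measures, and all intervals cover counting error only. Of Olfm4-low cells, those with at least 10 mitotic UMIs formed 26.4% (24.0% to 28.9%) and 19.0% (16.9% to 21.3%). Those with both sums at most 3 formed 46.4% (43.7% to 49.2%) and 58.6% (55.9% to 61.4%). In neither of these groups do the intervals of the libraries overlap. Before the limit on mitotic UMIs, 308 of 1322 Olfm4-low cells in library 1 and 201 of 1284 in library 2 reached the S-phase sum.

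Members held 1170288 UMIs in library 1 and 944285 in library 2, with medians of 14740 and 16611 UMIs and 4289.5 and 4690 genes per cell. Mitochondrial genes took a median of 10.4% and 9.12% of their UMIs. The libraries shared 40 barcode sequences, and none of these was a member. Doublets were not removed, and no member exceeded 38621 UMIs.

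The label was checked against genes that the rule did not read. Epcam, the epithelial adhesion molecule, had a UMI in all 129 members, with 9 to 85 UMIs each. Of the lymphocyte, B cell, tuft and stromal markers, Trac, Cd79a, Ms4a1, Jchain, Col1a1, Col3a1 and Hbb-bs were at 0 in both libraries. The 7 lymphocyte markers summed to 65.8 and 65.7 counts per 1000000 UMIs (CPM) in members, against 53913 and 45897 in Ptprc-positive lymphocytes of the same libraries. Those lymphocytes were chosen by Ptprc and by Cd3e, Cd3g and Trac, which are among the 7 markers. Members had to lack Ptprc, so the choice of cells fixes the direction of this gap. The 4 tuft cell markers summed to 5.13 and 7.41 CPM.

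Paneth and goblet transcripts were present in members and also in lymphocytes, which should lack them. The 5 Paneth markers Mmp7, Ang4, Itln1, Defa21 and Defa22 summed to 352 and 625 CPM in members and to 375 and 553 CPM in lymphocytes. The 4 goblet markers summed to 507 and 856 CPM in members and to 317 and 695 CPM in lymphocytes. The lymphocytes, barcodes with UMIs of Ptprc and of Cd3e, Cd3g or Trac and none of Epcam, numbered 135 and 108. Their medians were 2374 and 3094.5 UMIs, against the members' 14740 and 16611, so an equal CPM stands for more UMIs per barcode in members. The part of free RNA in these values was not tested. Olfm4 itself stood at 1008 and 793 CPM in members against 145 and 150 CPM in lymphocytes, so "low" does not mean absent.

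A few members carried many UMIs of single secretory genes. In library 1, 1 member with 26020 UMIs held 1018 UMIs of Chgb and 308 of Chga, granule proteins of enteroendocrine cells, with 129 of the tachykinin precursor Tac1, 29 of the serotonin enzyme Tph1 and 35 of Vim. It had 37 S-phase UMIs and 2 mitotic UMIs. The next highest member had 3 UMIs of Chgb. Another 3 members, 2 in library 1 and 1 in library 2, held 52, 30 and 38 UMIs of the goblet peptide Tff3 (median over members 4) with 5, 4 and 3 UMIs of the Notch ligand Dll1. Of the other goblet markers, in the same order, these members held 8, 6 and 1 UMIs of Agr2, 0, 6 and 1 of Spink4 and 0, 0 and 1 of Muc2. The secretory master regulator Atoh1, at 2, 1 and 0 UMIs in them, had a UMI in 8 of 129 members. These members were singled out after their values were seen.

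Cells of 3 further groups, chosen by like rules, were set beside the members: 593 Olfm4-low cells in G2 and mitosis, 39 Lgr5-positive cells in S phase and 1367 Olfm4-low cells outside the cycle. UMIs were summed per group and library and expressed as CPM. A gene with at least 100 UMIs over both groups was described as apart when its CPM ratio was at least 2 in the same direction in each library. The same cells' genes chose the groups, so these values are a description, with no test and no interval. The table carries no spread over animals.

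Against Olfm4-low cells in G2 and mitosis, members were higher in genes that prepare and start replication. Members had to reach 10 S-phase UMIs and the G2 and mitotic cells did not have to, a choice that favours this direction. Of the 593 G2 and mitotic cells, 295 also had at least 10 S-phase UMIs, so the contrast is not with cells that lack them. Over all 9064 genes, 1.22% were higher in members, 111 genes, and 1.7% lower, 154 genes, of which 7 in total are genes of the rule. The median log2 ratio over all genes was -0.0049 in library 1 and -0.015 in library 2. Of 12 licensing genes 9 were higher and 0 lower, with a median log2 ratio of 1.81 and 1.71.

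Cdc6, which loads the MCM helicase onto origins, stood at 107 CPM in library 1 and 114 in library 2 in members, against 18.2 and 11.0 CPM in the G2 and mitotic cells. Its partner Cdt1 stood at 193 and 210 CPM against 40.7 and 26.6. The ratios were 5.87 and 10.4 for Cdc6 and 4.74 and 7.89 for Cdt1. Of the MCM helicase subunits, Mcm6 was at 387 and 345 CPM against 110 and 85.1, Mcm5 at 300 and 326 against 114 and 97.1, and Mcm3 at 179 and 238 against 50.5 and 37.9. The helicase subunits Mcm2 and Mcm4 and the origin recognition subunits Orc1 and Orc6 were also higher. Mcm7, Mcm10 and the Cdt1 inhibitor Gmnn did not reach 2-fold in both libraries.

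Among G1 to S regulators was the gene with the highest ratio in the library nearer to 1. Cyclin E2 (Ccne2) stood at 58.1 and 60.4 CPM in members and 9.30 and 6.39 CPM in the G2 and mitotic cells, 6.25-fold and 9.45-fold. Cyclin E1 (Ccne1) stood at 78.6 and 111 against 20.6 and 17.0 CPM, and the factor E2f1 at 54.7 and 61.4 against 12.4 and 7.79. With E2f3, Cdk2 and Mybl2 these made 6 of 19 regulators higher, and Ccna2, the cyclin of later S phase and G2, was lower at 124 and 101 against 421 and 468 CPM. The D cyclins Ccnd1 and Ccnd2 and their kinases Cdk4 and Cdk6 did not reach the fold.

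Fork components were split. Of 13 measured genes of origin firing and fork protection 7 were higher, among them Timeless (56.4 and 64.6 against 14.4 and 10.2 CPM), its partner Tipin, the checkpoint mediator Clspn (102 and 114 against 42.7 and 31 CPM) and the helicase factor Cdc45. Dbf4, the activator of the Cdc7 kinase, was lower, at 50.4 and 58.2 against 112 and 127 CPM, whereas Cdc7 was higher.

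Of 24 genes of the polymerases, clamp and chromatin assembly 11 were higher. The clamp Pcna stood at 639 and 707 CPM against 286 and 205, the ligase Lig1 at 273 and 259 against 122 and 119, and the single-strand binding subunit Rpa2 at 101 and 129 against 32.3 and 29.4. The others were Pola1, Pola2, Pole2, Rfc1, Rfc3, Dna2, Atad5 and Chaf1b. The flap nuclease Fen1 was listed at 0 in every group here, so no level can be given for it.

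Of 17 genes of nucleotide supply 3 were higher: Dut, which removes dUTP, at 188 and 179 against 93.1 and 76.9 CPM, and the purine enzymes Ppat and Paics, the latter at 309 and 280 against 114 and 83.5 CPM. Thymidylate synthase Tyms was at 133 and 125 CPM in members and 144 and 126 CPM in the G2 and mitotic cells, and the thymidine kinase Tk1 at 185 and 213 against 180 and 171. The levels of the 4 S-phase genes in members are set by the rule and are given as a description only. Hells was at 308 and 363 CPM in members against 75.8 and 62.3, Uhrf1 at 260 and 308 against 66.4 and 60.9, Pclaf at 362 and 371 against 368 and 343, and Rrm2 at 280 and 304 against 138 and 102.

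Repair and methylation genes followed with smaller counts. Of 17 measured repair and checkpoint genes 3 were higher, the mismatch factor Msh6 (76.0 and 65.7 against 22.0 and 18 CPM), the nuclease Exo1 and the kinase Chek1. Among 11 genes of maintenance methylation and chromatin, Dnmt1 alone was higher, at 180 and 185 against 77.0 and 76.7 CPM. Outside the lists, the uracil glycosylase Ung stood at 109 and 136 against 21.6 and 10.8 CPM. Klhl23, Zfp367, Wdr76, Tcf19 and Slfn9 were among the 15 highest, and Slfn9, a Schlafen gene whose close relatives could share reads with it, was at 349 and 431 against 86.7 and 81.7 CPM.

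Of 32 genes of G2 and mitosis 31 were lower in members, a direction that the choice of cells fixes. The spindle protein Nusap1 stood at 22.2 and 20.1 CPM against 242 and 262, the kinase Plk1 at 20.5 and 20.1 against 136 and 171, and the kinetochore protein Cenpf at 18.8 and 14.8 against 148 and 186. The exception was Top2a, the topoisomerase that untangles replicated DNA, at 444 and 343 CPM in members against 840 and 991. Depdc1a, Psrc1, Prr11, Cdc25c, Aspm and Kif20a were also among the lowest. The G2 and mitotic cells were deeper, with medians of 20055 and 20410 UMIs.

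Against Lgr5-positive cells in S phase, which rest on 23 and 16 cells, members were lower in crypt base stem cell genes. Members had to lack Lgr5 and hold little Olfm4, and the other group had to hold Lgr5, a choice that favours this direction. Over all 4841 genes 0.723% were higher in members, 35 genes, and 1.07% lower, 52 genes, of which 2 are genes of the rule. None of the 83 measured genes of the licensing, firing, polymerase, nucleotide, methylation and repair lists was apart in either direction, which is near the share over all genes, and both groups had to reach the same S-phase sum. The summed licensing genes stood at 2064 and 2201 CPM in members and 2430 and 1965 CPM in the Lgr5-positive cells, so the order of the groups differed between libraries. One G1 to S gene was lower, the kinase Cdk6, at 79.5 and 74.1 against 229 and 248 CPM.

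Of 14 measured crypt base stem cell genes 10 were lower in members and 0 higher, with a median log2 ratio of -1.54 and -1.73 against -0.0045 and 0.042 over all genes. Ascl2, the transcription factor of crypt base stem cells, stood at 17.1 and 23.3 CPM in members and 147 and 237 CPM in Lgr5-positive cells. The Wnt target Axin2 stood at 36.7 and 38.1 against 251 and 219 CPM, and the transporter Slc12a2 at 762 and 630 against 2629 and 2333. Smoc2, Cdca7, Rgmb, Sox9, Igfbp4, Gkn3 and Aqp4 were the others. Outside the list, Soat1 was at 46.1 and 46.6 against 361 and 350 CPM, and Sox4, Prelp, Sfrp5 and Shisa2 were also among the lowest.

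Among the 35 higher genes Dmbt1, a secreted mucosal scavenger protein, stood at 3174 and 3994 CPM in members and 1070 and 1345 CPM in Lgr5-positive cells. Chp2 stood at 84.6 and 122 against 18.3 and 24.8 CPM, and the dual oxidase Duox2 at 38.5 and 94.3 against 9.17 and 24.8. In the Lgr5-positive cells these rest on few UMIs, 6 and 7 of Chp2 and 3 and 7 of Duox2, against 350 and 380 of Dmbt1. Rbp7, Pfkp, Nqo1, Anxa2, Scd2, Lmna and Mall completed the 10 highest. Of 18 measured absorptive genes 2 were higher, Dmbt1 and Gsdmc4. Hnf4a, the transcription factor of the intestinal epithelium, was at 524 and 549 against 602 and 644 CPM.

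**Figure D2:**
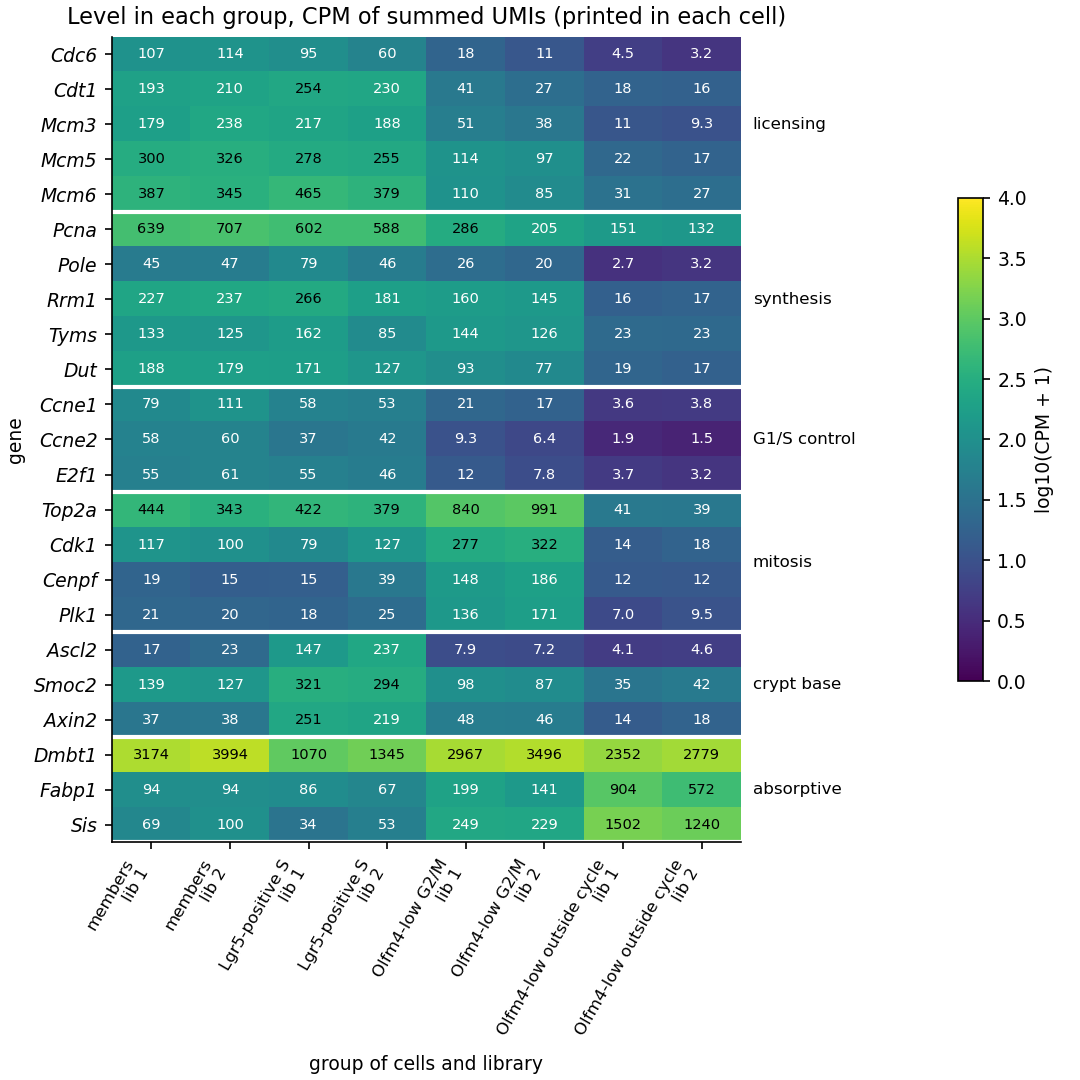
Level of 23 genes (rows, by role) in members and the 3 related groups, each in library 1 and library 2 (columns). Colour is log10(CPM + 1) and the CPM is printed in each cell. Cdc6 stands at 107 and 114 CPM in members and 94.8 and 60.2 in Lgr5-positive S cells, and Ascl2 at 17.1 and 23.3 against 147 and 237.

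Against Olfm4-low cells outside the cycle the difference was broad. Those cells could have at most 3 UMIs in each sum, a choice that favours higher cycle genes in members. Over all 9720 genes 8.69% were higher in members, 845 genes, and 6.9% lower, 671 genes, of which 8 are genes of the rule. The median log2 ratio over all genes was 0.07 and 0.03. All 11 measured licensing genes, 10 of 10 firing genes, 22 of 22 polymerase genes, 16 of 17 nucleotide genes, 11 of 11 methylation genes, 14 of 19 G1 to S genes and 13 of 15 repair genes were higher, and the nucleotide exception was Nme1. Of 30 measured genes of G2 and mitosis 22 were also higher, with Top2a at 444 and 343 against 40.5 and 38.8 CPM.

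Clspn showed the largest ratio in the library nearer to 1, at 102 and 114 CPM in members against 2.95 and 2.90. Exo1, Ccne2, Slfn9, Fam111a, Cdc45, Esco2, Cdc6, Fignl1 and Brca1 followed. Growth genes were higher too: 12 of 14 ribosome biogenesis genes were, with nucleolin (Ncl) at 1480 and 1363 against 497 and 460 CPM and Npm1 at 2029 and 1769 against 734 and 639. Of 17 measured crypt base genes 12 were higher, among them Myc at 71.8 and 76.2 against 13.1 and 17.3 CPM.

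Genes of mature absorptive cells were lower in members, 14 of 20 with a median log2 ratio of -2.48 and -1.76. Sucrase-isomaltase (Sis) stood at 69.2 and 99.5 against 1502 and 1240 CPM, intestinal alkaline phosphatase (Alpi) at 41.9 and 67.8 against 502 and 337, and the fatty acid binding protein Fabp1 at 94.0 and 94.3 against 904 and 572. Dmbt1, Hnf4a, Cdx1, Cdx2, Prap1 and Fabp2 were not apart. Of 10 measured cell cycle inhibitors and p53 targets 3 were lower and 2 higher, with a median log2 ratio of -0.11 and -0.31. Cdkn1a was lower at 55.5 and 37.1 against 163 and 168 CPM, as were Cdkn2b and Cdkn1c, and Trp53 was higher at 225 and 221 against 75.8 and 75.3, as was Cdkn2c. Among the 10 lowest genes were Neurod1, Ghrl, Gcg, Cck, Rimbp2, Cacna2d1, Slc9a3, Sult6b2 and Ffar2. Of the 5 listed enteroendocrine markers 2, Gip and Sct, were lower, and the list summed to 1193 and 90 CPM in members against 1007 and 2768. Most of the members' sum in library 1 came from 1 member, with 1018 of 1039 UMIs of Chgb and 308 of 314 of Chga. The rule for the comparison group left out no enteroendocrine cells. The part of these cells in the other differences was not tested.

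On both lineage sums the members lay between the Lgr5-positive S cells and the cells outside the cycle. The choice of cells by Lgr5 and Olfm4 favours a higher crypt base sum in the Lgr5-positive cells than in members. Each cell was thinned to 5000 UMIs so that depth was equal. The median sum of 20 crypt base genes was 8 UMIs in library 1 and 7 in library 2 in members, 28 and 26 in Lgr5-positive S cells, 5 and 5 in G2 and mitotic cells, and 2 and 2 outside the cycle. The median sum of 20 absorptive genes was 30.5 and 38 in members, 16 and 19.5 in Lgr5-positive S cells, 36 and 40 in G2 and mitotic cells, and 75 and 74 outside the cycle. The order of the 4 groups was the same in both libraries for each sum.

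The cycle sums set the groups in another order, which the choice of cells by S-phase and mitotic genes favours. The sum of 14 early S-phase genes, among them Ccne1, Cdc6, Mcm2 and Pcna, had medians of 13 and 15 in members, 15 and 12 in Lgr5-positive S cells, 3 and 3 in G2 and mitotic cells and 1 and 1 outside the cycle. The sum of 12 late genes, among them Top2a, Mki67 and Cenpf, had medians of 7 and 7 in members, 8 and 6 in Lgr5-positive S cells, and 24 and 26 in G2 and mitotic cells. Ribosome biogenesis gave 28 and 25 in members and 31 and 34.5, 20 and 20, and 8 and 8 in the other groups in the same order.

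The members differed among themselves in how far these sums had built up. The early sum ran from 2 to 30 UMIs in library 1 and from 2 to 29 in library 2, and the late sum from 0 to 40 and from 0 to 27. Spearman's rho between early and late sums was 0.05 over 72 members and 0.17 over 57. Without thinning it was 0.25 and 0.39, where both sums share the cell's depth.

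Lineage genes varied along with the remaining Olfm4. Olfm4 is a gene of the rule, which cuts its range at 0.3% and leaves out cells with Lgr5, so these values are no independent check. The crypt base sum had a rho with the Olfm4 share of 0.53 in library 1 and 0.67 in library 2, and the absorptive sum one of -0.33 and -0.34. Crypt base and absorptive sums had a rho of -0.22 and -0.21 with each other. Ribosome biogenesis had a rho of 0.37 and 0.33 with the crypt base sum and of -0.34 and -0.28 with the absorptive sum. All are descriptions over the cells of 1 library each, and the sums share the 5000 UMIs of a cell.

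**Figure D3:**
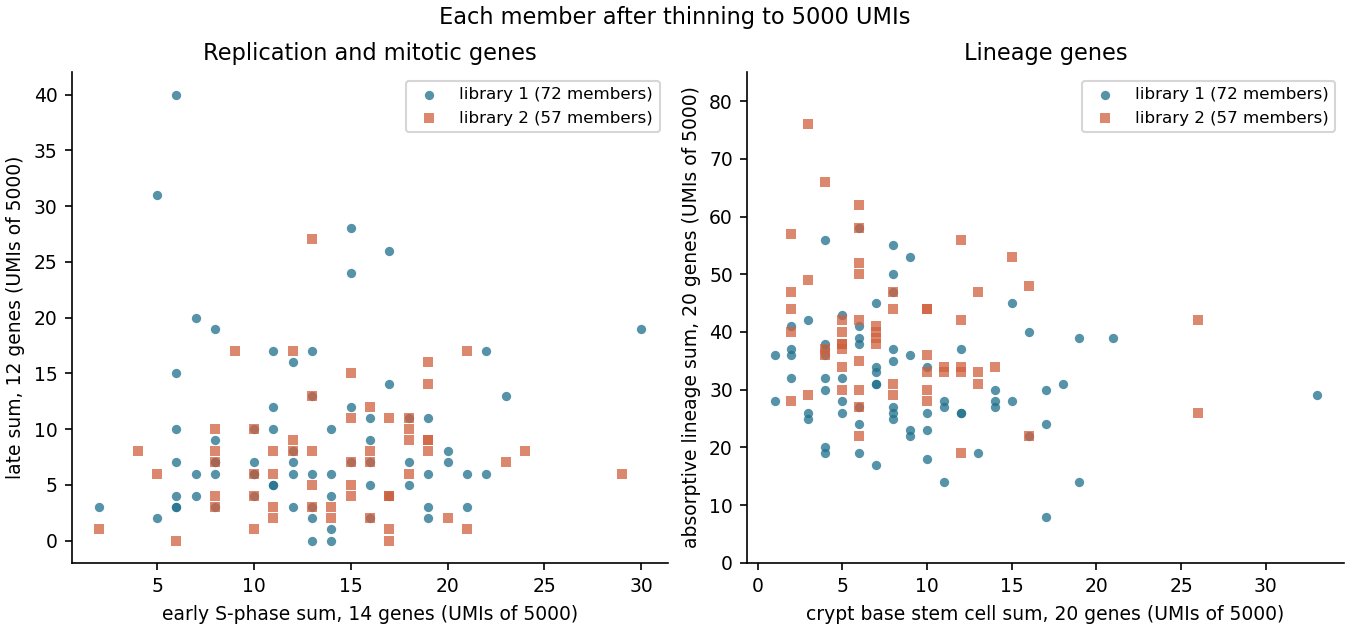
Each point is 1 of the 129 members after thinning to 5000 UMIs. Left, the early S-phase sum (x axis, UMIs) against the late sum (y axis, UMIs). Right, the crypt base stem cell sum (x axis, UMIs) against the absorptive sum (y axis, UMIs). Members of library 1 (circles) and library 2 (squares) share the same range of early sums, 2 to 30 and 2 to 29, and a late sum above 20 occurs at low as well as at middle early sums.

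Gene by gene, variance over mean among members after thinning had a median of 1.12 in each library over 1154 genes, near the value of 1 that counting alone gives. The largest values belonged to mitochondrial transcripts, with mt-Co1 at 15.9 and 17.5 and mt-Cytb at 16.5 and 14, and mt-Nd1, mt-Nd2, mt-Nd4, mt-Nd5 and mt-Nd6 were also among the 15 highest. The mitochondrial share of members ran from 5.34% to 21.1% in library 1 and from 6.36% to 22.9% in library 2.

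Among the nuclear genes of the 15 were Egr1 (4.34 and 4.67) and Fos (4.08 and 2.74), immediate early genes, which stress and growth signals switch on within minutes. Reg3g (6.76 and 3.18), Clca3b (3.37 and 3.61), Dmbt1 (4.08 and 2.98) and Slc12a2 (2.83 and 2.85) were others. Fcgbp and Olfm4 were also among the 15, and both are in the rule. None of the 15 was a replication gene. The rule limits the S-phase and mitotic sums of members, which can narrow the spread of replication genes.

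Between the libraries, genes of the antigen presentation and absorptive lists were higher in the members of library 2, as were Paneth and goblet genes, and immediate early genes were lower. A gene with at least 100 UMIs over both libraries was described as apart when its CPM ratio was at least 1.5 and the exact 95% interval of a ratio of Poisson counts, which covers counting error only, left out 1. Over all 3986 genes 3.39% were higher in library 2, 135 genes, and 1.58% lower, 63 genes, of which 3 are genes of the rule. The median log2 ratio of library 2 to library 1 over all genes was 0.04. These ratios compare the libraries, not the treatments.

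No gene was apart in the licensing, firing, polymerase, nucleotide, methylation or repair lists, 77 measured genes in all. Over all 3986 genes the shares were 3.39% higher and 1.58% lower. Members of both libraries had to meet the same limits on the S-phase and mitotic sums, a choice that favours like levels of replication genes. The median log2 ratios of these lists ran from -0.11 to 0.19. Pcna stood at 639 CPM in library 1 and 707 in library 2, Mcm6 at 387 and 345, and Rrm1 at 227 and 237. Of the G1 to S regulators Ccnd2, a D cyclin, was higher, at 494 and 750 CPM. All 12 measured genes of G2 and mitosis had a ratio below 1 with a median log2 ratio of -0.29, and Cdca8 was apart at 76.9 and 45.5 CPM. The mitotic sum was 0 in 8 of 72 members of library 1 and in 16 of 57 of library 2, and its part in that shift was not tested.

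Of 4 measured interferon genes 1 was higher in library 2. This was Oasl2, an interferon-induced member of the oligoadenylate synthetase family on chr5, which had 19.7 and 102 CPM in the 2 libraries, a ratio of 5.17 (3.25 to 8.55), with a UMI in 16 of 72 and 41 of 57 members. All 18 listed interferon genes had a higher CPM in library 2, although only 4 reached 100 UMIs and Oasl2 alone was apart. Below that number of UMIs, Rtp4 had 4.27 and 40.2 CPM, Bst2 5.98 and 42.4 and Ifi44 3.42 and 29.7. Irf1, which was measured, stood at 175 and 208. Outside the list Ifi27l2b was at 54.7 and 173 CPM and Rnf213 at 46.1 and 112.

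Of the genes of antigen presentation, the class II genes H2-Ab1 (40.2 and 141 CPM, ratio 3.51, 2.50 to 5.00) and Cd74, the invariant chain (89.7 and 274 CPM, ratio 3.06, 2.43 to 3.87), were the 2 of 7 with enough UMIs, and both were higher. Of 7 measured class I genes 4 were higher, the heavy chains H2-K1 (411 and 794 CPM) and H2-D1 (397 and 639), the peptide transporter Tap1 (49.6 and 90) and the immunoproteasome subunit Psmb8 (111 and 191). The other three, B2m, Tapbp and Psmb9, had ratios of 1.47, 1.11 and 1.40.

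In Oasl2 and Cd74 the related cells differed between the libraries in the same direction. Oasl2 was at 26.6 and 103 CPM in the G2 and mitotic cells and at 34.5 and 175 CPM outside the cycle. Cd74 was at 76.3 and 187, and at 66.4 and 168 CPM. In lymphocytes, the 7 class II genes summed to 84.6 and 106 CPM, against 173 and 520 in members. Lymphocytes held fewer UMIs per barcode, and the part of free RNA in these values was not tested.

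Of 18 measured genes of the absorptive lineage 8 were also higher, with a median log2 ratio of 0.43 that fell to 0.062 over the 13 genes measured in members with at least 15 S-phase UMIs. The aminopeptidase Anpep stood at 160 and 374 CPM, the antimicrobial lectin Reg3g at 328 and 610, and the lipid transfer protein Mttp at 196 and 311. Alpi, Krt20, Reg3b, Gsdmc4 and Rbp2 were the others, whereas Fabp1 (94.0 and 94.3), Hnf4a (524 and 549) and Cdx2 (94.8 and 116) were not apart. In lymphocytes the same list summed to 786 and 1286 CPM, against 6215 and 7987 in members. It summed to 7754 and 8932 CPM in the G2 and mitotic cells. Outside the cycle it was lower in library 2, at 18373 and 17909 CPM. Ceacam10, Apol10a, Scd2 and Duox2 were also among the 12 highest.

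Of 4 measured Paneth genes 3 were higher in library 2, and so were 3 of 4 goblet genes. Defa21 stood at 45.3 and 123 CPM in members and at 48.4 and 112 CPM in lymphocytes, and Muc2 at 56.4 and 118 against 36.3 and 92.7. The goblet gene Agr2 stood at 69.2 and 126 CPM in members but at 238 and 166 in the G2 and mitotic cells.

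The immediate early genes were lower in library 2. All 18 listed genes had a lower CPM, and of 13 measured 11 were apart, with a median log2 ratio of -1.12. Fosb had 245 and 57.2 CPM in the 2 libraries, a ratio of 0.23 (0.17 to 0.31), Fos at 843 and 335 (0.40, 0.35 to 0.45), and Egr1 at 579 and 234 (0.40, 0.35 to 0.47). Jun stood at 672 and 308 CPM and the phosphatase Dusp1, which switches off the kinases upstream of these genes, at 87.2 and 24.4. Jund and Btg2 were the 2 not apart.

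Fos was also lower in the G2 and mitotic cells (1047 and 438 CPM), outside the cycle (970 and 653) and in lymphocytes (1173 and 671). Handling of the 2 pools cannot be told apart from their treatment. Within each library the genes varied strongly among members, with Fos at 0 to 51 UMIs per member in library 1 and 0 to 37 in library 2. Hes1, a Notch target, was lower as well, at 230 and 152 CPM in members and 290 and 163 in the G2 and mitotic cells. Rhob, Atf3, Zfp36 and Klf10 were among the 12 lowest.

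The 3 lowest ratios, of Chgb, Chga and Tac1, rest on 1 member. Of 1039 Chgb UMIs in library 1, 98.0% came from that cell, and without it Chgb had 21 UMIs in library 1 and 36 in library 2. Chga then had 6 and 8 UMIs and Tac1 6 and 7. No other gene among the 198 had more than 37.3% of its UMIs in 1 member of the library where it was higher.

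**Figure D4:**
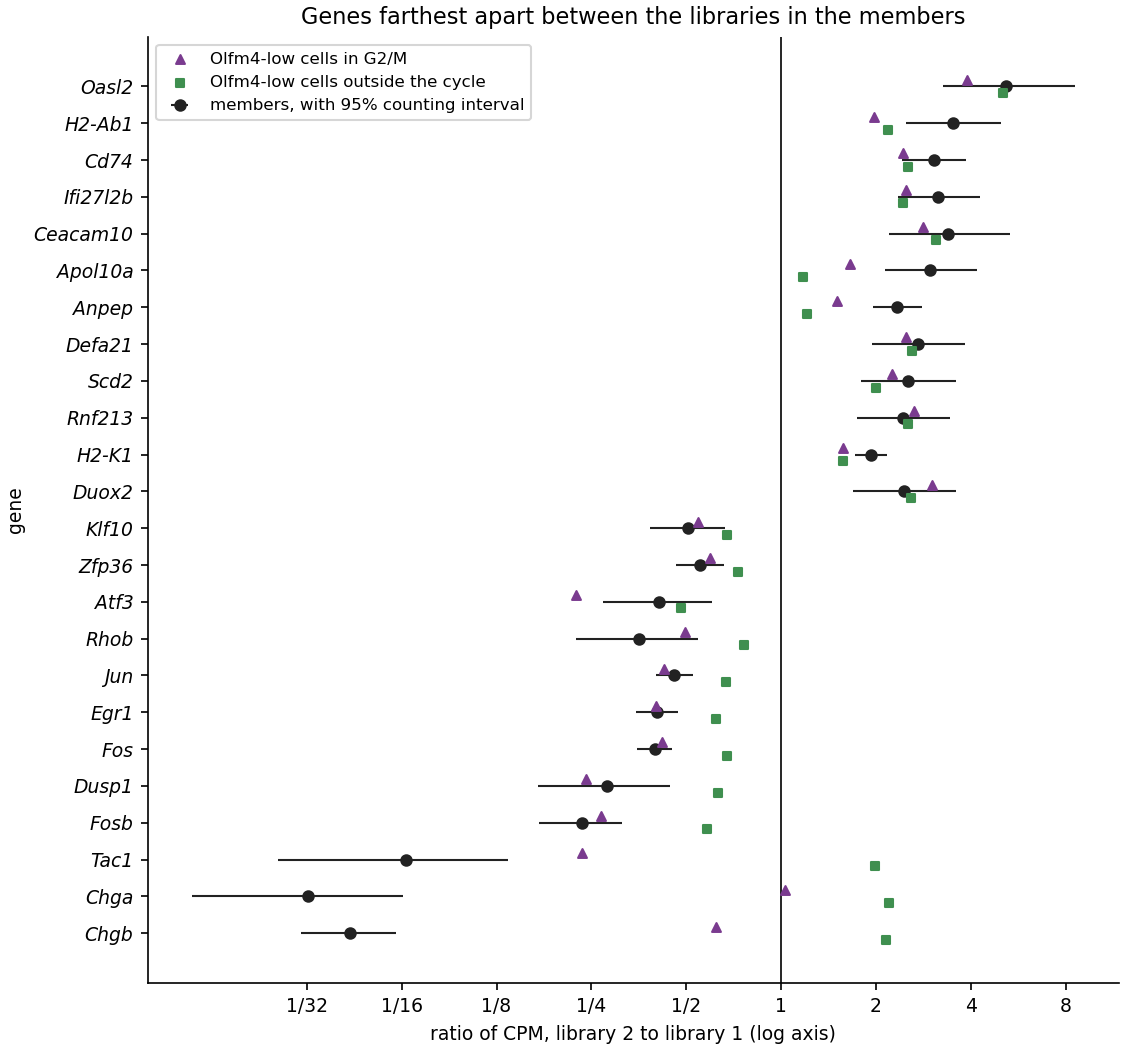
Ratio of CPM of library 2 to library 1 (x axis, log scale) for the 12 highest and 12 lowest genes apart in members (rows). Black points are members with the exact 95% interval for counting error, triangles the Olfm4-low cells in G2 and mitosis, and squares those outside the cycle. Oasl2 is near 5 in members (5.17) and the squares (5.07), the immediate early genes lie below 1 in all 3 groups, and Chga and Chgb rest in members on 1 cell.

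Of the 135 genes higher in library 2 in members, 35 were apart in the same direction in the G2 and mitotic cells and 26 outside the cycle. Of the 63 lower genes 19 and 6 were. Those groups had 8759 and 9463 measured genes, with 213 and 386 higher and 135 and 93 lower. The rule of size was the same, but the larger groups hold more UMIs per gene, and whether a ratio differs between groups was not tested.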

How the data were processed

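The authors deposited raw UMI counts per gene and barcode as 1 matrix for both libraries, with Cell Ranger 2.1.1 and the build mm10 named in the submitters' processing notes. The method of calling cells is not stated there. The counts were used as deposited, and counts of features that share a symbol were summed. Of 31253 feature identifiers 99.5% are in GENCODE M21, which gave chromosomes. The labels name a Chromium V3 kit, whereas the barcodes are 27 bases long, so the chemistry is not settled.

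Barcodes ending in 1 and 2 were taken as the libraries, which held 6310 and 6446 barcodes with 54316199 and 54877667 UMIs. Related groups used the members' base criteria: cells in G2 and mitosis had at least 10 mitotic UMIs, Lgr5-positive S cells at least 2 UMIs of Lgr5, and cells outside the cycle at most 3 UMIs in each sum. Doublets were not called. The members, the gene lists and the comparisons were chosen with earlier results of these data known.

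Summed counts were divided by the group's total and scaled to 1000000. Ratios between libraries carry exact conditional Poisson 95% intervals, shares carry Clopper-Pearson intervals, and a floor of 3 counts stands for 0. With 1 library per group there is no p-value. The scripts (Python 3.11.15, numpy 2.4.6, scipy 1.17.1, pandas 2.3.3) were tested on simulated data with known ratios.

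Named genes were those of the rule; in each list up to 6 with the most UMIs and those apart; the 10 highest and 10 lowest apart against each related group, ranked by the ratio nearer to 1; the 12 highest and 12 lowest between libraries, ranked by the bound nearest to 1; and the 15 of highest variance over mean. Against cells outside the cycle, listed genes apart are mostly given as counts. Genes named beyond these were chosen after their values were seen. Promoter sequences are from RefSeq on GRCm38.p6. Alternatives were other thresholds for the S-phase sum, depth and mitochondrial share, thinning to 5000 UMIs, a limit of 40000 UMIs, a minimum of 400 UMIs per gene, and another scaling.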

Additional observations from a re-analysis of the deposited data

How the results depend on the processing

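The share of quality-passing barcodes moved with the threshold on the S-phase sum: at 7 UMIs it was 3.91% in library 1 and 2.69% in library 2, at 15 UMIs 1.70% and 1.54%, and at 0.1% of a cell's UMIs 1.95% in library 1. It stayed within the main interval in both libraries with at least 10000 UMIs, at most 10% mitochondrial UMIs or at most 40000 UMIs. The counts of genes apart fell under several settings. Thinning and the minimum of 400 UMIs also left fewer genes to measure. Their counts are not shares, and they cannot be set directly beside the main counts. With cells thinned to 5000 UMIs, the counts were 60 higher against cells in G2 and mitosis, 19 higher and 14 lower against Lgr5-positive S cells, 433 higher against cells outside the cycle, and 27 higher and 16 lower between libraries. With at least 400 UMIs per gene they were, in the same order, 48 higher and 102 lower, 10 and 9, 403 higher, and 16 and 6. At 15 S-phase UMIs, 32 genes were lower than in Lgr5-positive S cells, and a ratio of at least 2 left 20 higher and 12 lower between libraries. With Lgr5-positive cells taken from 1 UMI of Lgr5, an alternative added after seeing the data, 22 genes were higher, against 35 in the main setting. That alternative added 13 and 12 cells to the Lgr5-positive group. Without thinning, rho of early and late sums was 0.25 and 0.39.

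Without the member rich in Chga and Chgb, also chosen after seeing the data, the log2 ratios reversed to 1.05 for Chgb, 0.69 for Chga and 0.50 for Tac1. The median log2 ratio of 3 cell cycle inhibitors reversed to 0.014 at 15 S-phase UMIs. Scaling by the median ratio shifted all log2 ratios by 0.037. No paired analysis was possible because each group is 1 pooled library and no barcode suffix is tied to a label.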
